A study of Mus musculus with 10 samples.

Results

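A group of 10 genes of de novo fatty acid synthesis was compared between livers with and without Fbp1, which encodes the gluconeogenic enzyme fructose bisphosphatase. They were taken by symbol from the 53392 rows of the deposited gene table: Slc25a1, Acly, Acaca, Acacb, Fasn, Me1, Elovl6, Scd1, Srebf1 and Thrsp. All 10 were measured and all 10 were among the 15392 genes with enough counts to be tested. Both groups were C57BL/6 mice aged 24 weeks, 5 wild type (WT, replicates 1 to 5) and 5 deficient in hepatic FBP1 (here Fbp1-deleted, replicates 6 to 10), and mRNA of the frozen liver was sequenced. The sources used here do not give what drives the deletion, nor sex, hour of collection, feeding state, litter or batch. The design text calls the replicates biological. The edgeR p-values set the difference between the groups against the spread among the samples within each group of 5. The comparison asks how expression of the lipogenic enzymes differs when the liver lacks this step of gluconeogenesis.

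De novo lipogenesis turns surplus carbohydrate into fat, mainly in liver and adipose tissue. Citrate leaves the mitochondrion through a carrier and is split to acetyl-CoA, which is carboxylated to malonyl-CoA and joined by fatty acid synthase into palmitate with electrons from NADPH. Palmitate is then lengthened and given a double bond. In liver, insulin acts on these genes through the transcription factor SREBP-1c and glucose through ChREBP.

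Deletion of Fbp1 was visible in the libraries labelled so. Fbp1 read between 778 and 1050.3 counts-per-million (CPM, on library sizes scaled by edgeR's TMM factors) in WT and between 7.38 and 13.4 CPM in Fbp1-deleted liver, a log2 change (Fbp1-deleted minus WT) of -6.60 (SE 0.19, adjusted p = 6.13e-11, edgeR). The libraries held between 17778395 and 23894812 counts. Hepatocyte markers were abundant in all libraries, with Alb between 32764 and 71094 CPM in WT and between 59805 and 67039 CPM in Fbp1-deleted liver. Of 8 hepatocyte markers, Cps1 and Tat rose and the other 6 did not pass the test. Of the adipocyte markers, Lep was at 0 counts in all 10 libraries and Adipoq, Plin1, Retn and Cfd were too low to test. The 8 adipocyte markers summed to between 15.9 and 43.2 CPM in WT and between 31.8 and 113 CPM in Fbp1-deleted liver, much of it Plin4 (7.52 to 34.5 CPM and 24.1 to 102 CPM), which hepatocytes also express. None of the 3 tested with edgeR passed, with 1 higher and 1 lower at an unadjusted p under 0.05. DESeq2 and limma-voom each called 1 as risen. Of 5 Kupffer cell markers 3 fell, with 0 higher and 4 lower at an unadjusted p under 0.05 in edgeR. Their sum was 168 to 238 CPM in WT and 134 to 188 CPM in Fbp1-deleted liver. Of 6 tested leukocyte markers 2 fell, with a sum over the 7 listed of 15.1 to 19.9 CPM against 7.63 to 11.2 CPM. At an unadjusted p under 0.05 in edgeR, 0 leukocyte markers were higher and 5 lower, and DESeq2 called 4 fallen and limma-voom 3. Of all genes tested, 10.6% rose and 10.02% fell in edgeR. Of 5 endothelial markers 1 rose, Lyve1 (log2 change 0.83), and 2 were lower at an unadjusted p under 0.05 in edgeR. The median log2 change of the endothelial list was -0.25. Of 5 stellate markers 1 rose, with 2 higher and 0 lower at an unadjusted p under 0.05 in edgeR, and DESeq2 called 2 risen. None of 5 cholangiocyte markers passed in edgeR, with 1 higher and 2 lower at an unadjusted p under 0.05, none in DESeq2 and 1 risen in limma-voom. In bulk tissue, fewer cells of a type and less RNA per cell cannot be told apart. The part of these differences in the results below was not tested.

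Promoter sequences are shown for 5 members so that the carrier and the enzyme next to it, which moved differently, can be read beside 3 other enzymes that rose. They come from RefSeq's starts on GRCm38.p6, which held 9 of the 10 members with 12 windows in all; the entry missing is Scd1. Each sequence runs 5′ to 3′ towards the transcription start and ends before the first annotated exon of the gene. Capitals mark 4 motifs searched on both strands, namely the E-box CACGTG, the CCAAT box CCAAT, the GC box GGGCGG and the sterol element TCACNCCAC. All 5 genes but Elovl6 lie on the minus strand.
Slc25a1, chr16:17928220-17928469: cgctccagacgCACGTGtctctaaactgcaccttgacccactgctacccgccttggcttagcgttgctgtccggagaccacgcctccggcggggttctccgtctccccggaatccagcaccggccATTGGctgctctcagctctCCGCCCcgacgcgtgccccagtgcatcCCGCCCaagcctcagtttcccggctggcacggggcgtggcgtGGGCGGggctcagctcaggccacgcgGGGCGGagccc
Acly, chr11:100528001-100528250: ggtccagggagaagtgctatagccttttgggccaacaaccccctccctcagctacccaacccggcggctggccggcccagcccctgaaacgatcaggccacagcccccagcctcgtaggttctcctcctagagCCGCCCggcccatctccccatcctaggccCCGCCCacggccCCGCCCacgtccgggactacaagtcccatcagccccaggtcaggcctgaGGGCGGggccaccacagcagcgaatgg
Fasn, chr11:120824548-120824797: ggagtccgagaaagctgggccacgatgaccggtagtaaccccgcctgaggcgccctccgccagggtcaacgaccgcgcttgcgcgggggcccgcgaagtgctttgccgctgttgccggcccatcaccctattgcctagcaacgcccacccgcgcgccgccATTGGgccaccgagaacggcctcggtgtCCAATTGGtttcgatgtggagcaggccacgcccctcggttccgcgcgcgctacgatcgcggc
Me1, chr9:86695954-86696164: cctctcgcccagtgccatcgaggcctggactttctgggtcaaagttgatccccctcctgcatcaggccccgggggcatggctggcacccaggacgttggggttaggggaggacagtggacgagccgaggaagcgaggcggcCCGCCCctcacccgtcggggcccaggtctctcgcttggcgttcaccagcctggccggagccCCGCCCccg
Elovl6, chr3:129532136-129532354: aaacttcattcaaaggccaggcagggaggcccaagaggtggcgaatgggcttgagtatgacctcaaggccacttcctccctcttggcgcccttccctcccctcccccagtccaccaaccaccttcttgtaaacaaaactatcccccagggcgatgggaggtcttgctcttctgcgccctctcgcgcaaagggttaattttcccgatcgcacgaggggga

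The Slc25a1 stretch held 1 E-box, 1 CCAAT box and 4 GC boxes, and the Acly stretch held 4 GC boxes with neither of the others. Fasn held 3 CCAAT boxes, at positions -90, -62 and -59 from the start, the last 2 of them overlapping on opposite strands. Me1 held 2 GC boxes in the stretch shown and another that straddles its end, not in capitals, and Elovl6 held none of the 4 motifs. Over the 12 member windows of 250 bases, 7 held a CCAAT box and 5 a GC box, 1 held the E-box and 0 held the sterol element. Of all 32851 RefSeq promoter windows of that length, 33.8% held a CCAAT box, 32.7% a GC box, 6.02% the E-box and 1.05% the sterol element. The windows of Acaca and Acacb end at starts 65766 and 18983 bases inside the annotated genes and are not shown. Windows of Srebf1 (12110 and 1954 bases), Me1 (8676 bases) and Thrsp (180 bases) also end inside their genes and count among the 12. Smaller offsets of Me1 (39 bases) and Elovl6 (31 bases) were cut from the stretches shown. A match is a description of these letters and not a mapped binding site.

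Of the 10 members, 6 rose in Fbp1-deleted liver (Acly, Acaca, Fasn, Me1, Elovl6 and Thrsp) and 0 fell, where 10.6% of all genes tested rose and 10.02% fell (adjusted p under 0.05, edgeR quasi-likelihood test with Benjamini-Hochberg adjustment). No member was lower at an unadjusted p under 0.05 either, and DESeq2 and limma-voom each called 6 risen and 0 fallen. The same 6 had every Fbp1-deleted library above every WT library, against 6.57% of all genes that did so and 6.89% with every Fbp1-deleted library below. The median log2 change was 1.10 over the members and 0.0093 over all genes tested. Over all genes the split was 1636 risen and 1542 fallen. It moved to 1266 and 1878 under upper quartile scaling and to 1190 and 1965 under library totals. Without Fbp1-deleted liver 6 it was 1086 and 1019, and without liver 9 it was 1066 and 1069. The number of members risen stayed at 5 or 6 under all settings tried.

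**Figure D1:**
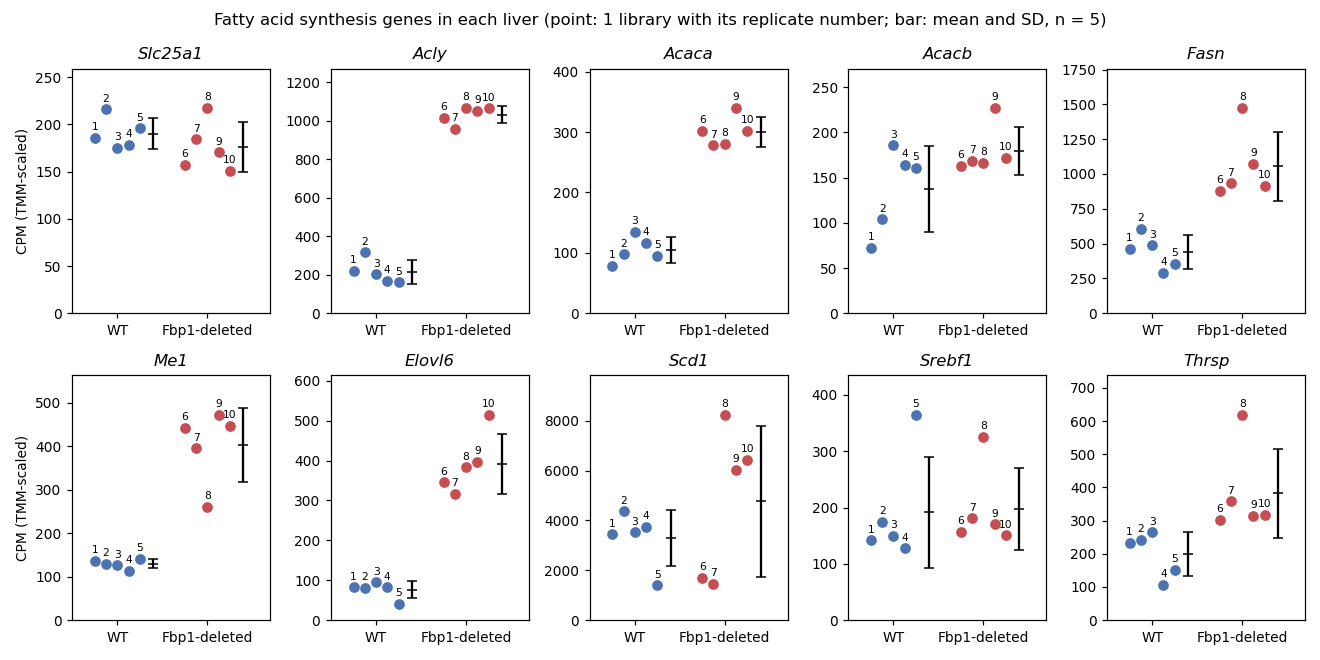
Level of each of the 10 genes in each liver, in CPM on a linear axis from 0, with the replicate number beside each point and the group mean with its SD (n = 5) at the right of each group. Acly, Acaca, Fasn, Me1, Elovl6 and Thrsp have all 5 Fbp1-deleted livers above all 5 WT livers, and Scd1 in Fbp1-deleted liver lies at 1455 and 1708 CPM or at 6038 to 8253 CPM.

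The first steps, from the mitochondrion to malonyl-CoA, did not move as one. Slc25a1, the mitochondrial citrate carrier (chr16:17925223-17928219, minus strand), read 186, 216, 175, 178 and 196 CPM in WT livers 1 to 5 and 157, 184, 218, 170.3 and 151 CPM in Fbp1-deleted livers 6 to 10. The groups overlapped, and the log2 change was -0.11 (SE 0.11, 95% interval -0.36 to 0.13, adjusted p = 0.520, edgeR). Acly, ATP citrate lyase, takes over the citrate once it is in the cytosol and makes acetyl-CoA. It read 219, 317, 203, 167 and 160.1 CPM in WT and 1016, 959, 1068, 1050.4 and 1065 CPM in Fbp1-deleted liver (chr11:100476353-100528000, minus strand). The lowest Fbp1-deleted liver stood far above the highest WT liver, and the 5 Fbp1-deleted livers were close together, with a coefficient of variation of 4.40% against 29.5% in WT. Acly rose 4.84-fold, a log2 change of 2.27 (SE 0.17, adjusted p = 2.78e-06, edgeR).

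A pair of acetyl-CoA carboxylases makes malonyl-CoA: Acaca encodes the cytosolic form that feeds synthesis, and Acacb the form at the mitochondrial surface, whose product restrains fatty acid entry for oxidation. Acaca read 78.9, 97.9, 135, 117 and 95.1 CPM in WT and 302, 278, 280.2, 341 and 302 CPM in Fbp1-deleted liver (chr11:84129672-84401651, plus strand). It rose 2.87-fold with no overlap of the groups (log2 change 1.52, SE 0.14, adjusted p = 1.23e-05, edgeR). Acacb read 72.6, 104, 186, 164 and 161 CPM in WT and 163, 169, 166, 227 and 172 CPM in Fbp1-deleted liver (chr5:114146535-114250761, plus strand). Its groups overlapped: WT livers 1, 2 and 5 lay below all Fbp1-deleted livers, WT livers 3 and 4 lay among them, and Fbp1-deleted liver 9 stood above the rest. The log2 change of Acacb was 0.39 (SE 0.22, 95% interval -0.10 to 0.87, adjusted p = 0.252, edgeR). Salmon estimates where reads shared by alike transcripts belong, so reads from sequence common to both carboxylases could be placed on either.

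Ratios within a library do not depend on how libraries are scaled, and they compare the change of one member with that of another directly. They are built from the same counts, so they are no independent support for the changes given above. The count ratio of Acaca to Acacb was 1.09, 0.943, 0.727, 0.714 and 0.592 in WT and 1.86, 1.65, 1.69, 1.498 and 1.76 in Fbp1-deleted liver. Every Fbp1-deleted liver exceeded every WT liver, and the mean log2 ratio moved from -0.33 ± 0.35 to 0.75 ± 0.12 (SD, n = 5 each), a difference of 1.09 (exact permutation test, two-sided, p = 0.00794, adjusted over 3 ratios 0.0119). The ratio of Acly to Slc25a1 was 1.18, 1.47, 1.16, 0.938 and 0.818 in WT and 6.48, 5.21, 4.91, 6.17 and 7.07 in Fbp1-deleted liver. Its mean log2 ratio moved from 0.12 ± 0.33 to 2.56 ± 0.22 (SD, n = 5 each), a difference of 2.44 with the same exact permutation p = 0.00794 (adjusted 0.0119), the smallest that 5 against 5 can give. With group medians in place of means, the differences were 1.21 and 2.41 and both adjusted p-values were 0.0714 in the exact permutation test. Several splits share the most extreme difference of medians, so fully separated groups cannot reach the smallest p with this statistic. The p-values for medians therefore do not show a weaker separation of the groups.

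**Figure D2:**
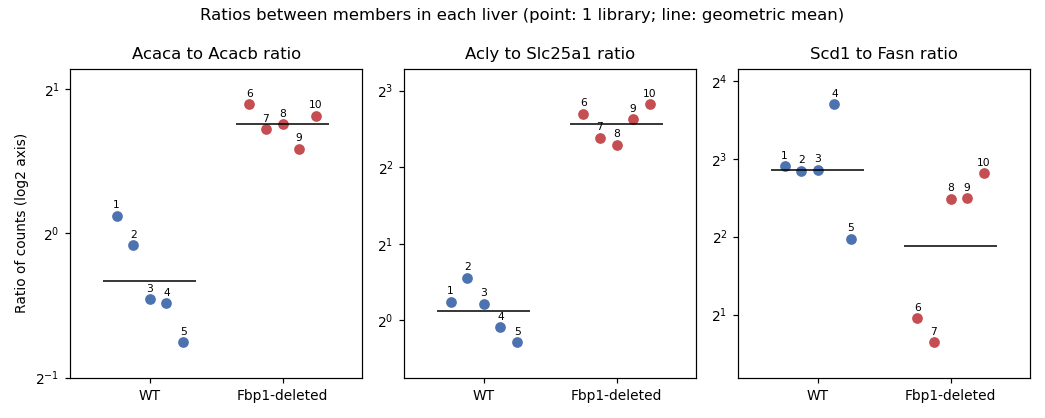
Count ratios between pairs of members in each liver on a log2 axis, with the geometric mean of each group as a line and replicate numbers beside the points. The Acaca to Acacb and Acly to Slc25a1 ratios separate the groups, while for Scd1 to Fasn the Fbp1-deleted livers 8 to 10, at 5.59 to 7.02, lie inside the WT range of 3.92 to 13.0.

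Fatty acid synthase and malic enzyme, which is a source of NADPH for the synthase, both rose. Fasn read 461, 606, 487, 289 and 356 CPM in WT and 881, 932, 1476, 1074 and 915 CPM in Fbp1-deleted liver (chr11:120805846-120824547, minus strand). The groups did not overlap, with liver 8 highest, and Fasn rose 2.40-fold (log2 change 1.26, SE 0.20, adjusted p = 0.00120, edgeR). Me1, the cytosolic malic enzyme, read 136, 129.7, 126, 113 and 141 CPM in WT and 441, 395, 260.1, 472 and 447 CPM in Fbp1-deleted liver (chr9:86581371-86695953, minus strand). It rose 3.12-fold (log2 change 1.64, SE 0.15, adjusted p = 1.23e-05, edgeR). Liver 8, which had the highest Fasn, had the lowest Me1 of the Fbp1-deleted group. An exon of Me1 overlaps one of A330041J22Rik, and the library keeps no strand.

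The enzymes that finish the chain differed from each other. Elovl6, the elongase that lengthens palmitate to stearate, read 82.1, 81.7, 94.4, 82.7 and 40.4 CPM in WT and 345, 316, 383, 397 and 515 CPM in Fbp1-deleted liver (chr3:129532355-129638495, plus strand). It rose 5.13-fold, the largest change of the 10 members (log2 change 2.36, SE 0.21, adjusted p = 2.84e-05, edgeR), and its exons overlap Gm35986. Scd1, the stearoyl-CoA desaturase that places the double bond of oleate, read 3448, 4362, 3530.4, 3749 and 1397 CPM in WT and 1708, 1455, 8253, 6038 and 6428 CPM in Fbp1-deleted liver (chr19:44394455-44407879, minus strand). Fbp1-deleted livers 8 to 10 lay above all WT livers, and livers 6 and 7 lay below WT livers 1 to 4. The log2 change was 0.53 (SE 0.52, 95% interval -0.64 to 1.71, adjusted p = 0.513, edgeR), and the coefficient of variation within Fbp1-deleted liver was 63.6%, the widest of any member in either group.

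For the members that rose, livers 6 and 7 lay above the WT range, though often low within their own group. Acly in them was 1016 and 959 CPM, Fasn 881 and 932 CPM and Elovl6 345 and 316 CPM. The count ratio of Scd1 to Fasn was 7.48, 7.20, 7.25, 13.0 and 3.92 in WT and 1.94, 1.56, 5.59, 5.62 and 7.02 in Fbp1-deleted liver. The groups overlapped, and the mean log2 ratio moved from 2.86 ± 0.61 to 1.88 ± 0.999 (SD, n = 5 each), a difference of -0.98 (exact permutation test, two-sided, p = 0.127, adjusted 0.127). Without WT liver 5, which had the lowest ratio of its group, the difference was -1.20 with an adjusted p of 0.0159 in the exact permutation test. With group medians it was -0.38, with an adjusted p of 0.238 in that test. Scd1 made up 45.6% to 73.6% of the counts of all 10 members in WT and 27.8% to 63.2% in Fbp1-deleted liver. The other 9 members summed to between 1346 and 1968 CPM in WT and between 3766 and 4797 CPM in Fbp1-deleted liver, with no overlap.

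The regulators Srebf1 and Thrsp behaved differently. Srebf1 encodes SREBP-1, a membrane-held factor that enters the nucleus once it has been cut, and gene counts pool its 1a and 1c transcripts and say nothing of the cutting. It read 142, 174, 149.7, 128 and 365 CPM in WT and 157, 181, 326, 170.0 and 151 CPM in Fbp1-deleted liver (chr11:60199089-60222581, minus strand). One liver of each group stood apart, WT liver 5 and Fbp1-deleted liver 8, and the other 8 lay between 128 and 181 CPM. The log2 change was 0.039 (SE 0.33, 95% interval -0.69 to 0.76, adjusted p = 0.948, edgeR), and its sign turned under upper quartile scaling (-0.020) and under library totals (-0.051). Without liver 8 it was -0.22 and without WT liver 5 it was 0.40, neither of which passed. Exons of Srebf1 overlap those of Rai1 and Mir6922.

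Thrsp, also called Spot 14, is a nuclear and cytosolic protein that responds to thyroid hormone and carbohydrate and promotes lipogenesis. It read 233, 243, 264, 107 and 151 CPM in WT and 303, 359, 619.9, 315 and 318 CPM in Fbp1-deleted liver (chr7:97412938-97417730, minus strand). The groups did not overlap, though the highest WT liver and the lowest Fbp1-deleted liver were near each other, and liver 8 stood above the rest. Thrsp rose 1.92-fold (log2 change 0.94, SE 0.28, adjusted p = 0.0356, edgeR). The call was lost without WT liver 1, 2 or 5 or Fbp1-deleted liver 7, 9 or 10, with adjusted p from 0.0510 to 0.0880, and under upper quartile scaling, under library totals or with no filter on low counts. Over all alternatives the adjusted p ran from 0.00195 to 0.130, and the log2 change from 0.70 to 1.06.

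**Figure D3:**
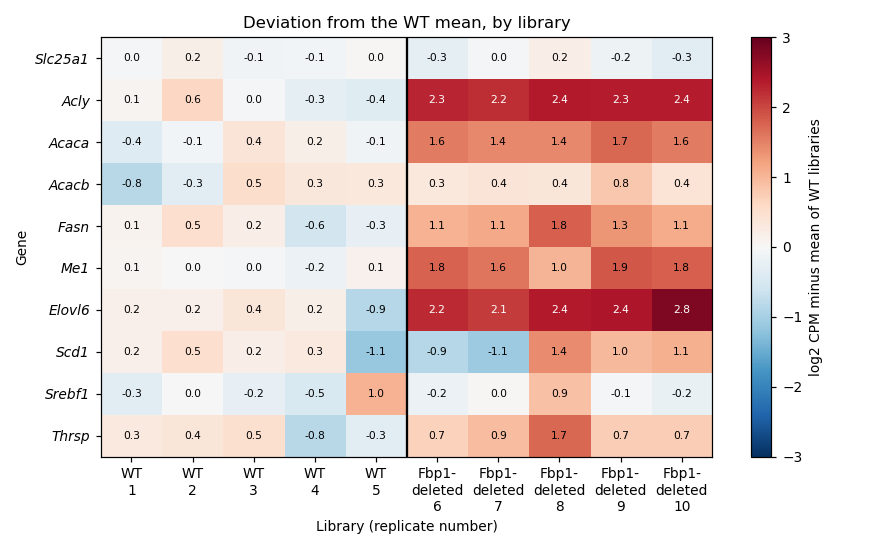
Level of each of the 10 genes in each liver as log2 CPM minus the mean of the WT livers, with the value printed in each cell and red above, blue below that mean. Acly, Acaca, Fasn, Me1, Elovl6 and Thrsp are red in all 5 Fbp1-deleted livers, and Scd1 is -0.85 and -1.08 in livers 6 and 7 but between 0.97 and 1.42 in livers 8 to 10.

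Liver 8 held the highest value of the Fbp1-deleted group for 6 members (Slc25a1, Acly, Fasn, Scd1, Srebf1 and Thrsp) and the lowest for 1, Me1. Liver 7 held the lowest for 4 (Acly, Acaca, Elovl6 and Scd1). Among WT, liver 5 was highest for Srebf1 and Me1 and lowest for Acly, Elovl6 and Scd1, so that its high Srebf1 stood beside low levels of 3 other members. All members together took between 0.324% and 0.648% of the counts of a WT library and between 0.504% and 1.30% of a Fbp1-deleted one.

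Set per kilobase of exon, so that genes can be ranked, Scd1 was the most abundant member in both groups, at a mean of 674 CPM per kilobase in WT and 976 in Fbp1-deleted liver. In WT, Thrsp (91.2) and Slc25a1 (87.9) came next with overlapping ranges. Acly (40.4), Fasn (40.1), Srebf1 (34.0) and Me1 (33.6) followed, each overlapping its neighbour, and then Acacb (14.3), Elovl6 (11.9) and Acaca (6.14), again overlapping in turn. In Fbp1-deleted liver, Acly came after Scd1 at a mean of 195 CPM per kilobase, a range overlapping that of Thrsp (175). Me1 (105), Fasn (96.4), Slc25a1 (81.3), Elovl6 (60.8) and Srebf1 (34.96) followed in a chain of overlapping ranges, and Acacb (18.6) and Acaca (17.6) overlapped at the end. With the longest coding transcript as the length, Srebf1 stood above Fasn in WT, and in Fbp1-deleted liver Thrsp stood above Acly, Slc25a1 above Fasn and Acaca above Acacb. The order within these pairs rests on the length used.

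**Figure D4:**
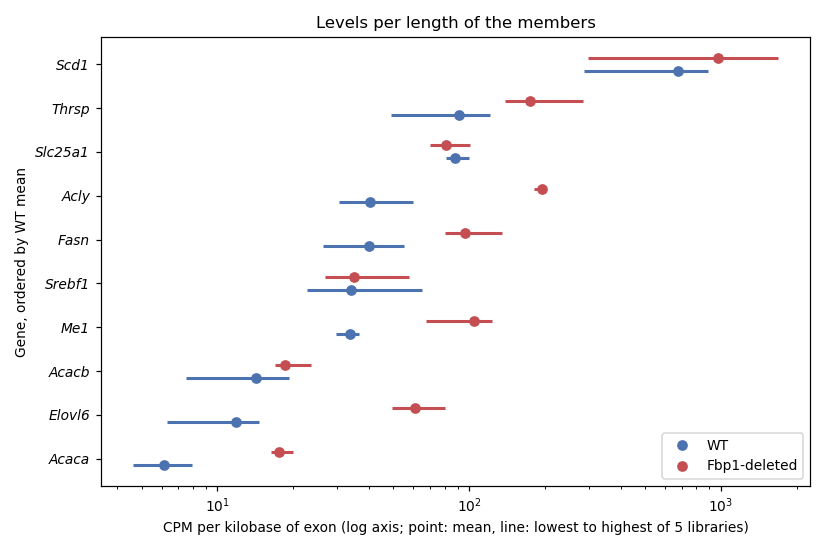
Level of each member in CPM per kilobase of exon on a log axis, with the mean as a point and the lowest to highest of 5 livers as a line. Acly moves from 40.4 to 195 and Elovl6 from 11.9 to 60.8, while the WT and Fbp1-deleted lines of Slc25a1, Acacb, Scd1 and Srebf1 overlap.

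Likeness was measured as the mean absolute difference over the 10 livers between log2 CPM profiles, each centred on its own mean. The pair of members nearest to each other was Fasn and Thrsp, at 0.20, followed by Acly and Elovl6 (0.26), Acaca and Me1 (0.27) and Slc25a1 and Srebf1 (0.29). Other genes were searched among those tested whose average log2 CPM reached 3. Members and genes with provisional or unnamed symbols were left out, which gave 8299 genes. Those nearest to Acly included Dchs1 (0.20), Cyp8b1 (0.26), Frmd8 (0.28) and Slc25a22 (0.29). Those nearest to Fasn were Rpia (0.18), Slc17a4 (0.22), Pklr (0.23), Pygl (0.25) and Frmd4b (0.25). Those nearest to Srebf1 included Sh3pxd2a (0.22), Mta3 (0.23), Abcg8 (0.24) and Tbc1d13 (0.24). Their log2 changes between the groups ran from 1.90 to 2.67 for the genes named near Acly, from 0.86 to 1.33 for those near Fasn and from -0.15 to 0.08 for those near Srebf1. The measure spans both genotypes, so a gene near a member has a like log2 change by construction.

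The rest of the pathway was taken as 83 listed genes, of which 79 could be tested. Of these 79, 17 rose and 12 fell, where 10.6% of all genes tested rose and 10.02% fell. Their median log2 change was 0.010, near that of all genes. Without WT liver 2, WT liver 5 or Fbp1-deleted liver 6, the number fallen among the listed genes was 7. The supply of acetyl-CoA and NADPH was the list with the most rises, 8 of 15, with 1 fall and a median of 0.30. Pgd, 6-phosphogluconate dehydrogenase and a source of NADPH, rose from 27.0 to 41.4 CPM in WT to 88.0 to 116 CPM (log2 change 1.62, SE 0.13, adjusted p = 7.64e-06, edgeR). G6pdx and Idh1, further NADPH sources of the list named after their values were seen, did not pass (log2 changes 0.17 and -0.13, adjusted p = 0.499 and 0.394, edgeR). Pdhb and Pdha1, subunits of the pyruvate dehydrogenase complex, rose by log2 changes of 1.12 (SE 0.10, adjusted p = 1.23e-05) and 0.51 (SE 0.10, adjusted p = 0.00279, edgeR). Aacs, which activates acetoacetate in the cytosol, rose by 1.17 (SE 0.19, adjusted p = 0.00150, edgeR). Acss2, which makes acetyl-CoA from acetate in the cytosol, went the other way and fell from 66.1 to 214 CPM in WT to 65.3 to 103 CPM (log2 change -0.85, SE 0.26, adjusted p = 0.0423, edgeR). The groups overlapped for Acss2, and its call was lost without WT liver 1, 2, 3 or 5 or Fbp1-deleted liver 6, 7, 9 or 10 (adjusted p 0.0618 to 0.0999). The call was also lost with no filter on low counts (adjusted p 0.140, edgeR) and in limma-voom (adjusted p 0.0501).

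A further list joined genes around acetyl-CoA carboxylase and the synthase with genes of the separate mitochondrial fatty acid synthesis (Mcat, Oxsm, Ndufab1 and Cbr4). Of its 8 tested genes, 1 rose and 1 fell, with a median of -0.04. That is near the share of all genes tested, 10.6% risen and 10.02% fallen. Aasdhppt, which attaches the phosphopantetheine arm of carrier proteins, rose by a log2 change of 0.37 (SE 0.10, adjusted p = 0.0216, edgeR). Its call was lost without WT liver 2 or Fbp1-deleted liver 6 or 10 (adjusted p 0.0510 to 0.0613). The call was also lost under library totals (adjusted p 0.0663) and with no filter on low counts (adjusted p 0.0755, edgeR). Mlycd, malonyl-CoA decarboxylase, fell (log2 change -0.33, SE 0.10, adjusted p = 0.0276, edgeR). That call was lost without WT liver 2 or 5 or Fbp1-deleted liver 6, 9 or 10 (adjusted p 0.0518 to 0.0829), and with no filter on low counts (adjusted p 0.0674, edgeR).

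Other genes of elongation and desaturation, listed together with acyl-CoA synthetases, were split, 5 risen and 3 fallen of 18 tested. Of all genes tested, 10.6% rose and 10.02% fell. The synthetases in the list are Acsl1, Acsl3, Acsl4 and Acsl5. Acsl3, named after its values were seen, is among the risen (log2 change 0.63, adjusted p = 0.00577, edgeR). Elovl5, an elongase of polyunsaturated chains, rose from 237 to 265 CPM in WT to 748 to 873 CPM (log2 change 1.68, SE 0.09, adjusted p = 1.33e-07, edgeR). Elovl3 rose by 1.59 (SE 0.28, adjusted p = 0.00181, edgeR) at levels of 0.765 to 2.12 CPM in WT and 3.30 to 7.16 CPM in Fbp1-deleted liver. The genes that fell were desaturases and their electron donor. Fads6 fell (log2 change -0.88, SE 0.11, adjusted p = 0.000158), Fads1, a desaturase of polyunsaturated chains, likewise (-0.76, SE 0.16, adjusted p = 0.00548), and so did Cyb5a, a cytochrome that carries electrons to desaturases (-0.52, SE 0.12, adjusted p = 0.00959, edgeR). In Elovl5, Elovl3, Fads6, Fads1 and Cyb5a the groups did not overlap. Fads2 and Scd2, desaturases of the same list named after their values were seen, did not pass (adjusted p = 0.819 and 0.762, edgeR).

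**Figure D5:**
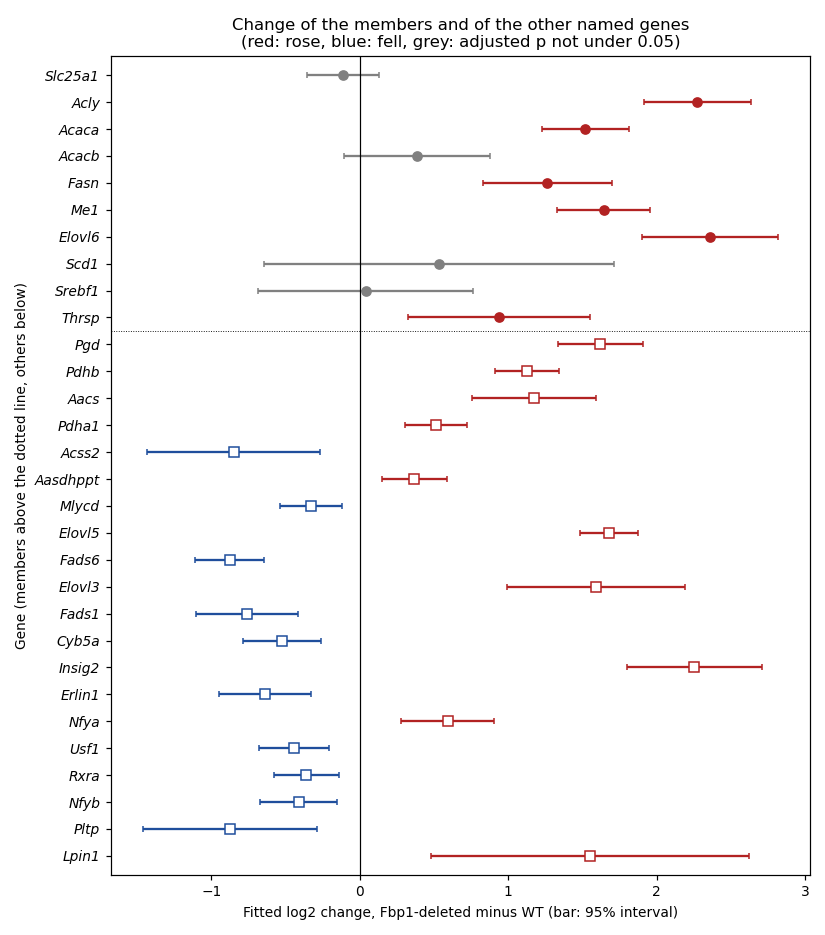
Fitted log2 change of the 10 members (filled circles, above the dotted line) and of 20 other named pathway genes (open squares), Fbp1-deleted minus WT, with the 95% interval as a bar. The bars of Slc25a1, Acacb, Scd1 and Srebf1 cross 0, and the widest member bar is that of Scd1, from -0.64 to 1.71.

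In the machinery that retains and cuts SREBP, 1 of 10 genes rose and 1 fell, near the share of all genes (10.6% risen, 10.02% fallen). Insig2, which holds the SREBP complex in the endoplasmic reticulum, rose 4.77-fold from 49.0 to 73.5 CPM in WT to 166 to 384 CPM (log2 change 2.25, SE 0.21, adjusted p = 3.48e-05, edgeR). As in Me1, the lowest of the Fbp1-deleted livers was liver 8. Erlin1, a partner of the INSIG proteins, fell (log2 change -0.64, SE 0.14, adjusted p = 0.00795, edgeR). Of 16 transcription factors that act on lipogenic promoters, 1 rose and 3 fell, beside the same shares of all genes, with a median of -0.14. Nfya, a subunit of the CCAAT-binding factor NF-Y, rose by 0.59 (SE 0.15, adjusted p = 0.0125, edgeR), with liver 8 inside the WT range, and its partner subunit Nfyb fell (log2 change -0.41, SE 0.12, adjusted p = 0.0281, edgeR). Usf1, which binds E-boxes, fell (log2 change -0.44, SE 0.11, adjusted p = 0.0129, edgeR), as did Rxra, the partner of LXR (log2 change -0.36, SE 0.10, adjusted p = 0.0242, edgeR). The call of Nfyb was lost without WT liver 1, 2 or 5 or Fbp1-deleted liver 6, 7 or 9 (adjusted p 0.0579 to 0.0768), and that of Rxra without WT liver 2, 3 or 5 or Fbp1-deleted liver 6 or 9 (adjusted p 0.0503 to 0.0679).

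Of other genes known to respond to SREBP-1 or LXR, 12 were tested. Among them 1 rose and 3 fell, with a median of 0.09, beside 10.6% risen and 10.02% fallen of all genes. Pltp, phospholipid transfer protein, fell (log2 change -0.87, SE 0.27, adjusted p = 0.0403, edgeR), a call lost without WT liver 2, 3 or 5 or Fbp1-deleted liver 6, 7, 9 or 10 (adjusted p 0.0591 to 0.0965). The call of Pltp was also lost with no filter on low counts (adjusted p 0.136, edgeR). Lpin1, a phosphatidate phosphatase, rose by 1.55 (SE 0.48, adjusted p = 0.0466, edgeR), a call lost without each single library but WT liver 4 (adjusted p 0.0536 to 0.105). The call of Lpin1 was also lost with no filter on low counts (adjusted p 0.121, edgeR).

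Clock genes moved with the genotype as well. Of 11 tested, 2 rose and 5 fell, with a median log2 change of -0.49, beside 10.6% risen and 10.02% fallen of all genes. Per3 fell (log2 change -1.998, SE 0.28, adjusted p = 0.00102, edgeR), Per2 fell (-0.62, SE 0.15, adjusted p = 0.0113, edgeR) and Tef fell (-0.49, SE 0.13, adjusted p = 0.0149, edgeR). Dbp and Ciart, named after their values were seen, fell by 1.83 and 0.59. Clock rose by 0.54 (SE 0.14, adjusted p = 0.0151, edgeR). Arntl rose by 1.20 (SE 0.35, adjusted p = 0.0271, edgeR), a call lost without WT liver 2 or 5 or Fbp1-deleted liver 6, 9 or 10 (adjusted p 0.0574 to 0.0699). Some lipogenic genes vary with the hour and with feeding, neither of which is given in the sources used here, and the part of either in the differences above was not tested.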

How the data were processed

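Liver mRNA of 5 WT and 5 Fbp1-deleted mice was read as paired ends from libraries that do not keep strand, per the labels' protocols and the design text. The table deposited by the authors gives, for each of the 10 livers, estimated counts of every gene, all of them whole numbers (0 were not). CASAVA, Salmon and GRCm38 are named in the submitters' processing notes, and the design text also describes STAR, featureCounts and DESeq2. How transcript estimates were summed to genes is not given in the sources used here. Of 53392 rows, 52175 matched GENCODE M21 by identifier and version and 1180 by identifier alone, and 37 did not match.

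The test was that of edgeR 4.0.16 (R 4.3.3): filterByExpr, TMM factors, robust quasi-likelihood test of genotype, Benjamini-Hochberg adjustment over the 15392 genes tested, threshold 0.05. SE is the log2 change over the root of F. Libraries held between 17778395 and 23894812 counts, the biological coefficient of variation was 0.235, and libraries of a group differed by a chi-square of at least 16.2 per degree of freedom, so none was a duplicate. Log2 profiles used a prior count of 2. Ratios were compared by exact permutation over 252 splits.

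The members, lists and tests were chosen with earlier results of these data known. From each list of other genes, the text names up to 4 called genes with the smallest p and called genes against the list's direction. Some genes that this rule or the likeness measure names are not reported here. Alternatives were RLE, upper quartile and total scaling, no filter, a filter of 1 CPM in 5 libraries, DESeq2 1.42.0, limma-voom (limma 3.58.1), a threshold of 0.01, each library left out, and for ratios group medians and counts per exon length. The alternatives for genes outside the members and the other length were added after the data were seen. The fit was tested on simulated data. No number is shared by a WT and a Fbp1-deleted sample, so nothing was paired.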

Additional observations from a re-analysis of the deposited data

Results flagged for a closer look

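Among 80 groups of 5 libraries (40 genes and ratios in each genotype), 7 had a library whose distance from the nearest other was large against the range of its group (Dixon's ratio), where chance flags about 1 in 20 groups. Of the members, Acacb was 227 CPM in Fbp1-deleted liver 9 against 163 to 172 CPM in the other 4, and Elovl6 was 40.4 CPM in WT liver 5 against 81.7 to 94.4 CPM. Srebf1 was 365 CPM in WT liver 5 against 128 to 174 CPM, and 326 CPM in Fbp1-deleted liver 8 against 151 to 181 CPM. Thrsp was 619.9 CPM in Fbp1-deleted liver 8 against 303 to 359 CPM.

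The same Fbp1-deleted liver 8 stood apart for 2 further genes. Nfya was 7.71 CPM there, inside the WT range, against 12.3 to 13.1 CPM in the other 4, and Per3 was 28.5 CPM against 12.7 to 16.0 CPM.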

How the results depend on the processing

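Acly, Acaca, Fasn, Me1 and Elovl6 kept their direction and their call under all 18 alternatives, and Slc25a1, Acacb and Scd1 passed under none. Thrsp kept its direction in all and its call in 8. Srebf1 turned sign under upper quartile scaling (-0.020), library totals (-0.051) and without single libraries (-0.22 to 0.40), and passed in none. At an adjusted p under 0.01, 678 genes rose and 633 fell, and of the other pathway genes 9 rose and 6 fell, by the construction of that threshold. Without single libraries, 1066 (Fbp1-deleted liver 9) to 2060 genes rose and 1019 (Fbp1-deleted liver 6) to 1858 fell, and 7 to 14 other pathway genes fell; the number was 7 without WT liver 2, WT liver 5 or Fbp1-deleted liver 6. With group medians, Acaca to Acacb (1.21) and Acly to Slc25a1 (2.41) no longer passed in the exact permutation test (adjusted p 0.0714 each), and Scd1 to Fasn was -0.38. Several splits share the most extreme difference of medians, so fully separated groups cannot reach the smallest p of the means. The loss for Acaca to Acacb and Acly to Slc25a1 therefore does not show a weaker separation. The difference in Scd1 to Fasn ran from -1.21 to -0.67 without single libraries and passed without WT liver 5 (-1.20). The cause of the other changes was not tested. No paired analysis was possible because the groups share no replicate number. A total of 5 libraries a group limits the precision, most of all for Scd1.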
